A study of Mus musculus with 3 samples.

Results

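The genes described here belong to the NRF2 system and were measured in macrophages. They are 10 of the 55536 annotated genes in the deposited gene tables, chosen by name: Nfe2l2 and Keap1, the regulator and its inhibitor, Gclc, Gclm and Slc7a11, which supply glutathione, Txn1, Txnrd1, Prdx1 and Srxn1 of the thioredoxin system, and Nqo1, a quinone reductase. The cells were bone-marrow-derived macrophages, primary cells grown out of marrow precursors, of mouse strain C57BL/6J. All had received Lipid A, the membrane anchor of bacterial lipopolysaccharide and its endotoxic part, at 100 ng/ml for 12 h, had been washed free of it for 12 h, and had received 100 ng/ml Lipid A again for 30 min. RNA of the cytosolic fraction was sequenced as total RNA after removal of ribosomal RNA, in 3 replicates of this 1 group. Age and sex were not among the labels used here. All 3 replicates carry the same donor entry, so each SD and p-value covers no more than the variation among these 3 libraries, possibly technical. Cells of other treatments were not analysed here, so no effect of Lipid A is stated.

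NRF2, encoded by Nfe2l2, is a transcription factor that switches on antioxidant and detoxifying genes. KEAP1 binds it in the cytoplasm and hands it to a ubiquitin ligase built on CUL3, so that NRF2 protein is normally short-lived. Oxidants and electrophiles modify cysteines of KEAP1, NRF2 then accumulates, pairs with a small MAF protein and binds antioxidant response elements at its targets. Much of this control acts on the protein, which RNA levels do not show. In macrophages the system is known for limiting oxidative damage and for restraining inflammatory genes.

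Annotated genes received 28759407, 54709008 and 49878183 expected counts in replicates 1, 2 and 3, an expected count being a model's share of reads for a gene. All 10 macrophage markers reached 1 TPM in every library, where TPM is the length-scaled share of transcripts. Of 31 markers of neutrophils, lymphocytes, dendritic cells, mast cells, stroma and red cells, 4 did so. The summed level of all 31 was 11.75, 13.96 and 13.35 TPM in replicates 1, 2 and 3. In these bulk samples fewer expressing cells and less RNA per cell cannot be told apart.

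Prdx1 and Txn1 led the members, and Slc7a11 and Nqo1 had the lowest means, both under 1 TPM. With detection set at 0.1 TPM in every library, 10 members were detected. With it set at 1 TPM in every library, as used here, 8 were, among 9556 detected genes in all. Prdx1 was the most abundant at 359 ± 85.6 TPM (mean ± SD, n = 3, as for all means here), rank 88 of the detected genes. Txn1 followed at 138 ± 13.9 TPM and Nfe2l2 at 62.1 ± 14.9 TPM. Keap1, Txnrd1, Srxn1 and Gclm lay together between 13.0 and 22.7 TPM. Gclc was near the lower end at 2.87 ± 0.644 TPM, and Slc7a11 and Nqo1 reached 1 TPM only in replicate 2. For neighbours in this order the difference of log2(TPM + 1) was taken within each library and called where its sign was shared by 3 libraries and its mean exceeded 3 SD. On that rule 7 of 9 neighbours differed. Those that did not were Keap1 minus Txnrd1, 0.08 ± 0.41, and Slc7a11 minus Nqo1, 0.05 ± 0.12. The order was taken from the same libraries, so the direction of each mean difference was largely set beforehand.

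**Figure D1:**
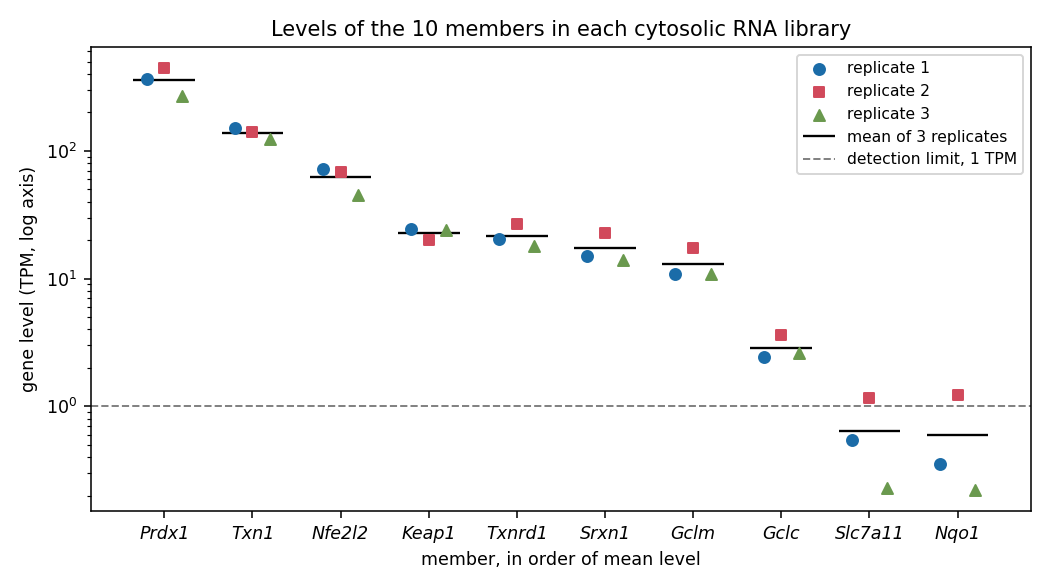
Level of each member in each library (TPM, log axis), with replicates 1, 2 and 3 as circles, squares and triangles and the mean as a bar. Prdx1 sits highest at a mean of 359 TPM, and only the squares of Slc7a11 and Nqo1, at 1.16 and 1.22 TPM, lie above the dashed limit of 1 TPM.

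NRF2 acts through short promoter sequences, so the 300 bases around each RefSeq start site (GRCm38.p6, 250 before and 50 after it) were searched for the core of the antioxidant response element, TGACNNNGC, on either strand. RefSeq held 11 such windows for 9 members, 3 of them for Txnrd1 and none for Gclc. The core occurred in 5 windows of 5 genes, Nfe2l2, Srxn1, Gclm, Prdx1 and Txnrd1, against 12.4% of all 32851 windows. The windows of Slc7a11, Nqo1, Txn1 and Keap1 held no match. The related motif TGANTCA, bound by AP-1 factors, occurred in 2 of the 11 windows against 7.81% of all. In Prdx1 both motifs overlap. The stretches around the match that lie outside annotated exons are shown for the 3 genes that have one, on the plus strand, with the match in capitals. It lies on the opposite strand in each, so the capitals spell the reverse complement of the core.
Gclm (chr3:122245378-122245476): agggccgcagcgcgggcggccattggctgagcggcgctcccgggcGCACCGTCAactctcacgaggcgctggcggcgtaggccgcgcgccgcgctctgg
Prdx1 (chr4:116685421-116685519): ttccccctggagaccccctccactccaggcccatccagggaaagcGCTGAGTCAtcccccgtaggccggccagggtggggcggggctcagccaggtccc
Txnrd1 (chr10:82859069-82859167): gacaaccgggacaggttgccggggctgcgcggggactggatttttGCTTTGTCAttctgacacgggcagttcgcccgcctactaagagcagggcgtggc
The match starts 134 bases before the start site in Gclm, 133 in Prdx1 and 92 before the second of the 3 starts of Txnrd1. Whether any factor bound these letters was not measured, and a window without a match says only that the core is not within it.

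Of the regulators, Nfe2l2 (chromosome 2, 75675513 to 75704641, minus strand, mm10) had 72.45, 68.80 and 45.05 TPM in replicates 1, 2 and 3. Replicates 1 and 2 lay close together and replicate 3 below both. Keap1 (chromosome 9, 21229730 to 21239361, minus strand) had 24.20, 20.13 and 23.81 TPM, the narrowest relative spread of the 10 with a coefficient of variation of 9.89%. Keap1 RNA was below Nfe2l2 RNA in every library. The log2 difference, Keap1 minus Nfe2l2, was -1.54, -1.72 and -0.89, with a mean of -1.39 ± 0.44. The two-sided exact sign-flip test gave p = 0.25, the smallest that 3 libraries allow, and 0.25 after Benjamini-Hochberg adjustment over the 5 pairs planned, as it did for each of the other planned pairs. This pair no longer passed the 3-SD rule when replicate 1 was left out (-1.31) or replicate 2 (-1.22).

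For glutathione, glutamate-cysteine ligase makes the first and limiting step. Its modifier subunit Gclm (chromosome 3, 122245557 to 122270732, plus strand) had 10.83, 17.30 and 10.82 TPM, with replicate 2 above a pair of near-equal values. Its catalytic subunit Gclc (chromosome 9, 77754535 to 77794485, plus strand) had 2.42, 3.61 and 2.59 TPM, in the same pattern. Modifier exceeded catalytic RNA in 3 of 3 libraries, by a log2(TPM + 1) difference, Gclm minus Gclc, of 1.83 ± 0.14. Both subunits were highest in replicate 2, where the difference was also the largest of the 3, at 1.99.

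Slc7a11 (chromosome 3, 49892526 to 50443614, minus strand) is the light chain of the cystine-glutamate exchanger, which brings in the cysteine that glutathione is made from. It had 0.54, 1.16 and 0.23 TPM, from 202, 906 and 146 reads. Scaled for depth with TMM, a normalization that aligns the bulk of genes, these were 7.15, 16.2 and 2.95 counts per 1e6 reads (CPM). The exact 95% Poisson intervals, which cover counting error only, did not overlap, at 6.20 to 8.21, 15.1 to 17.2 and 2.49 to 3.46 CPM. Its heavy chain Slc3a2, which serves several other transporters too, had 142.09, 116.26 and 139.11 TPM. The difference, Slc3a2 minus Slc7a11, was 6.54, 5.76 and 6.83 on the log2(TPM + 1) scale, with a mean of 6.38 ± 0.55. The heavy chain was thus lowest in the library where the light chain was highest.

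Prdx1 (chromosome 4, 116685544 to 116700822, plus strand), a peroxiredoxin that reduces hydrogen peroxide with electrons from thioredoxin, had 364.65, 441.10 and 270.13 TPM. Srxn1 (chromosome 2, 152105516 to 152111376, plus strand), the sulfiredoxin that repairs overoxidised peroxiredoxins, had 15.03, 22.53 and 14.06 TPM. Both were highest in replicate 2 and lowest in replicate 3, and Prdx1 minus Srxn1 was 4.30 ± 0.18 on the log2(TPM + 1) scale. Txn1 (chromosome 4, 57943373 to 57956411, minus strand), the thioredoxin of the cytosol, had 150.77, 140.87 and 123.34 TPM, with replicate 3 the lowest here too. Txnrd1 (chromosome 10, 82833951 to 82897712, plus strand), the reductase that recharges it from NADPH, had 20.37, 26.51 and 18.03 TPM. The substrate exceeded its reductase in every library, with Txn1 minus Txnrd1 at 2.63 ± 0.24.

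Nqo1 (chromosome 8, 107388225 to 107403206, minus strand), a quinone reductase often used as a readout of NRF2, had the lowest mean of the 10, not distinct from that of Slc7a11 on the 3-SD rule. It had 0.35, 1.22 and 0.22 TPM from 22, 162 and 25 reads, with Poisson intervals of 13.8 to 33.3, 138 to 189 and 16.2 to 36.9 reads. Scaled for depth these were 0.779, 2.89 and 0.505 CPM. Replicate 2 was above replicates 1 and 3, whose intervals in CPM overlapped, at 0.488 to 1.18 in replicate 1 and 0.326 to 0.745 in replicate 3. Replicate 2 moved the means of the scarcest members most. Without it Nqo1 averaged 0.285 TPM in place of 0.597, and Slc7a11 0.385 TPM in place of 0.643.

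The members thus differed between replicates, and mostly in the same direction. On TMM-scaled CPM, 8 of 10 were highest in replicate 2, the exceptions being Txn1 and Keap1, and 8 of 10 were lowest in replicate 3, the exceptions being Keap1 and Gclc. Of the 13410 genes that averaged at least 10 counts, 34.4% were highest in replicate 2 and 33.7% lowest in replicate 3. For Txn1 and Nfe2l2 the order of replicates 1 and 2 depended on the scale. Txn1 was highest in replicate 2 with library totals, DESeq2 size factors, rescaled TPM or kallisto-layout TPM, and Nfe2l2 was highest in replicate 1 in TPM. The count of members highest in replicate 2 thus ran from 7 to 9 over these scales, with Keap1 never among them. The share of all genes was taken on TMM-scaled CPM only, so the counts on the other scales have none beside them. A chi-square test of homogeneity, which asks whether counts differ by more than counting noise, called 10 of 10 members at an adjusted p under 0.05 (Benjamini-Hochberg over all genes tested), the largest being 1.77e-12 for Keap1. It also called 64.8% of all genes tested, so that count sets the members little apart. Without replicate 2 it called 6 of them, no longer Keap1, Nqo1, Gclc and Gclm, and 44.3% of all genes. Without replicate 3 it called 8, no longer Nfe2l2 and Txn1, and 42.5% of all genes.

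Size separated the members more than the call did. Each library was set against the mean of the other 2, with 0.5 CPM added to both, as a comparison of single libraries with no test. In replicate 2, 4 members were at least 1.5-fold higher, against 1.22% of all genes: Slc7a11 3.00-fold, Nqo1 2.97-fold, Gclm 1.81-fold and Srxn1 1.67-fold. Just inside the threshold was Srxn1. Just outside lay Prdx1 at 1.4999-fold, Gclc at 1.49-fold and Txnrd1 at 1.46-fold, then Nfe2l2 at 1.24-fold and Txn1 at 1.08-fold. Keap1 alone was below the others, at 0.88-fold, and 0 members were at least 1.5-fold lower, against 4.51% of all genes. With nothing added, 6 members passed, Prdx1 and Gclc included at 1.50026-fold and 1.51-fold, against 3.38% of all genes, and Nqo1 was 4.50-fold and Slc7a11 3.20-fold higher. The members' median log2 ratio in replicate 2 was 0.58, that of all genes 0.00. The count was 7 with library totals, against 1.63% of all genes, 7 with kallisto-layout counts, against 1.31%, and 7 over replicate 3 alone, against 2.83%, the 4 included each time.

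Replicate 3 stood at the other end. There 4 members were at least 1.5-fold lower, against 2.71% of all genes, namely Slc7a11 at 0.284-fold, Nqo1 at 0.430-fold, Nfe2l2 at 0.622-fold and Prdx1 at 0.623-fold, and 0 were higher, against 4.39%. The median log2 ratio was -0.51 for the members and 0.00 for all genes. Set against replicate 1 alone, 2 members were lower, no longer Nqo1 and Prdx1, beside 3.75% of all genes. Set against replicate 2 alone, 7 were, beside 2.83%. In replicate 1, 0 members were at least 1.5-fold higher, against 2.1% of all genes, and 1 was lower, Nqo1 at 0.582-fold, against 1.91%. These ratios share libraries, so the 3 counts are not independent of each other.

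**Figure D2:**
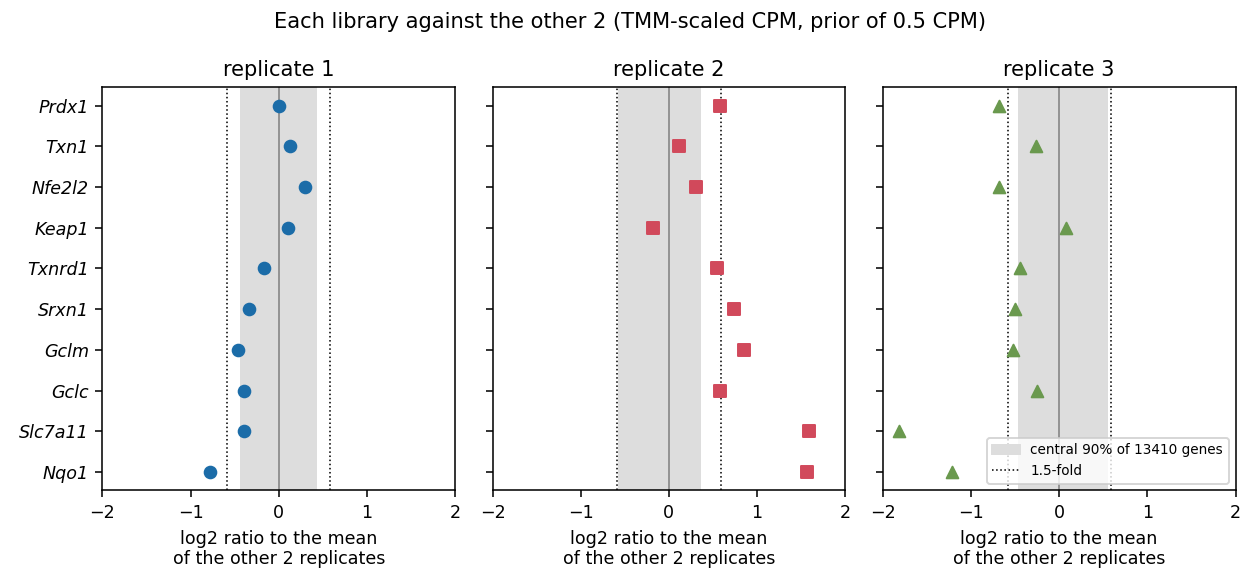
Log2 ratio of each library to the mean of the other 2 (TMM-scaled CPM with 0.5 CPM added) for each member, 1 panel per replicate. The grey band holds the central 90% of 13410 genes and dotted lines mark 1.5-fold; in replicate 2, 7 members lie right of the band, and Slc7a11 and Nqo1 stand farthest out in replicates 2 and 3.

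The members did not all vary alike. Nfe2l2 had 269, 271 and 168 TMM-scaled CPM, so replicate 2 matched replicate 1 (1.01-fold) and exceeded replicate 3 (1.61-fold). Txn1 was alike, with 210, 208 and 175 CPM. Gclm had 24.73, 44.53 and 23.99 CPM, 1.80-fold and 1.86-fold higher in replicate 2 than in replicates 1 and 3. Srxn1 followed Gclm, with 62.5, 101 and 57.3 CPM. Prdx1 shared both patterns, with 871, 1117 and 619 CPM. Gclm, Gclc and Srxn1 were highest in replicate 2, where Nfe2l2 RNA was 1.01-fold that of replicate 1. Keap1 RNA was lowest there, at 104 CPM against 119 and 118 CPM in replicates 1 and 3. The log2 ratio of Keap1 in replicate 2, -0.18, lay within the central band of all genes, -0.56 to 0.36. Any part of Nfe2l2 or Keap1 RNA in these differences was not tested.

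The spread can also be set beside that of genes of like abundance through the biological coefficient of variation (BCV), the spread between replicates beyond counting noise that edgeR estimates per gene and as a trend over abundance. It was above the trend for 8 of 10 members, all but Txn1 (0.123 against a trend of 0.130) and Keap1 (0.109 against 0.120), and for 25.8% of the 12738 genes fitted. For 4 members it was at least 1.5 times the trend, as for 3.31% of all genes. Slc7a11 reached 2.78 times the trend, Nqo1 1.90 times, Gclm 1.81 times and Srxn1 1.65 times. These 4 also passed 1.5-fold in replicate 2. Both measures rest on the same counts.

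Values of the libraries themselves moved beside this pattern. Replicate 2 had the most counts, and protein-coding genes of the nucleus took 30.0%, 27.9% and 29.4% of TPM in replicates 1, 2 and 3. Of the 10 macrophage markers 7 had a ratio below 0 on the log2 scale in replicate 2, with a median of -0.21, and 2 passed 1.5-fold, named after their values were seen. Cd14, a co-receptor for lipopolysaccharide, had 85.22, 132.22 and 73.42 TPM and was 1.76-fold higher. Itgam, an integrin of myeloid cells, had 32.61, 19.40 and 42.78 TPM and was 0.544-fold, so lower. Mertk and Fcgr1, receptors of macrophages, were next lowest at 0.680-fold and 0.687-fold. The part of depth, composition and cell state in the members' pattern was not tested.

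The other genes of the pathway were taken in 4 lists, written with earlier results known, whose median log2 ratios in replicate 2 ran from 0.01 to 0.23. Among 12 partners and controllers of NRF2, 10 were detected. Sqstm1, which can draw KEAP1 into autophagy, led with 262 ± 60.4 TPM, followed by the related factor Nfe2l1 with 62.4 ± 8.60 TPM and Rbx1, the RING subunit of the CUL3 ligase, with 45.6 ± 1.89 TPM. Btrc, which serves another route of NRF2 breakdown, was the lowest detected at 3.40 ± 0.365 TPM. In replicate 2 Maff was at least 1.5-fold higher, at 1.84-fold, and Nfe2l3 lower, at 0.665-fold. Neither counted as detected, with 1.68, 2.19 and 0.65 TPM for Maff and 0.09, 0.04 and 0.17 TPM for Nfe2l3. The list's median log2 ratio was 0.01. Sqstm1 shared the low replicate 3 of Nfe2l2, with 303.87, 289.97 and 193.01 TPM.

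Among 20 other known NRF2 targets 18 were detected, and 17 of 20 had a ratio above 0 in replicate 2, where 50.8% of all genes did. Only Ephx1 and Me1, which at 0.58 TPM in replicate 3 did not count as detected, reached 1.5-fold. The list's median log2 ratio was 0.23. Its most abundant genes were the ferritin chains Fth1, 19397 ± 1275 TPM, and Ftl1, 8412 ± 1010 TPM, which store iron. Hmox1, the haem oxygenase that frees iron from haem, had 95.07, 110.45 and 139.88 TPM. It was highest in replicate 3, where most members were lowest. Ephx1, an epoxide hydrolase and the lowest detected of the list, had 1.34, 2.27 and 1.40 TPM, in the order seen for Gclc. Taldo1, a pentose phosphate enzyme named after its values were seen, was just under the threshold at 1.47-fold.

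Of 24 glutathione genes 17 were detected, and 0 of the 22 that averaged at least 10 counts were at least 1.5-fold higher in replicate 2. The list's median log2 ratio was 0.11. Gpx1 and Gpx4, glutathione peroxidases, led with 287 ± 25.5 and 156 ± 11.0 TPM, followed by the glutaredoxin Glrx with 134 ± 16.8 TPM. The transferase Gstt1 was lowest detected at 1.24 ± 0.0794 TPM. Gsta4 was listed at 0 counts in all 3 libraries.

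Of 18 further thioredoxin genes 17 were detected, and 1 was at least 1.5-fold higher in replicate 2. That was Prdx6, a peroxiredoxin that draws on glutathione rather than thioredoxin, with 15.40, 24.62 and 16.09 TPM and a ratio of 1.81-fold, as for Gclm. The list's median log2 ratio was 0.14. Prdx5 led with 269 ± 52.3 TPM, followed by Prdx2 with 79.82 to 82.66 TPM and the methionine sulfoxide reductase Msrb1 with 75.3 ± 0.125 TPM. Txnl4a, a splicing protein with a thioredoxin fold, was lowest detected at 1.63 ± 0.264 TPM. Prdx5 was highest in replicate 3, at 327.87 TPM against 249.48 and 228.57 TPM in replicates 1 and 2, the reverse of Prdx1.

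**Figure D3:**
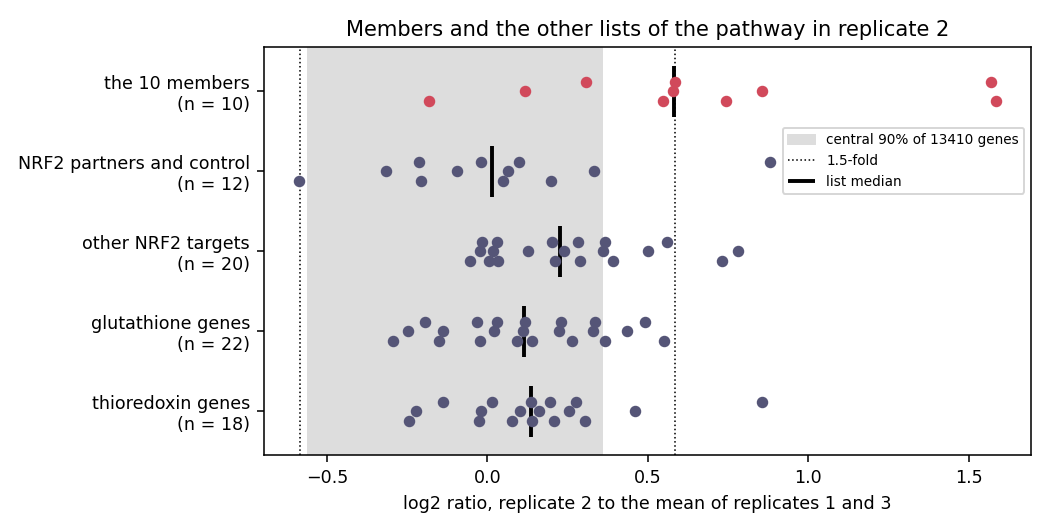
Log2 ratio of replicate 2 to the mean of replicates 1 and 3 (TMM-scaled CPM with 0.5 CPM added) for the 10 members and for those genes of 4 pathway lists that averaged at least 10 counts. Black bars are list medians, 0.58 for the members and 0.01 to 0.23 for the lists, and the grey band holds the central 90% of 13410 genes.

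At the transcript level the 10 genes have 42 annotated transcripts, and the same one led in both deposited transcript tables for 10 of 10 genes. Shares are model estimates wherever transcripts share exons. Nqo1 and Txn1 have 1 transcript each. Shares in this paragraph are those of the RSEM-layout table unless stated. Gclc was placed wholly on Gclc-201 there, against 95.6 ± 5.90% in the kallisto-layout table. Nfe2l2 and Srxn1 had 94.99% and 94.32% on their leading transcripts. Keap1 was split between Keap1-205 (56.5 ± 2.14%) and Keap1-201 (36.8 ± 1.82%), which share a coding length of 1872 bases. Gclm-206 held 47.5 ± 4.65%. Its coding length of 822 bases is also that of Gclm-201 (13.0%), whereas Gclm-203 (29.9 ± 4.98%) codes for 459 bases.

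The tables differed on some splits. Prdx1-204 held 59.6 ± 2.65% in the RSEM-layout table and 39.8 ± 1.85% in the kallisto-layout table. The gap went largely to Prdx1-202, with the same coding length of 597 bases, which held 0.571% and 21.8%. Slc7a11-201 held 79.8 ± 1.48% in the RSEM-layout table and 53.7 ± 7.60% in the kallisto-layout table. Transcripts with a retained intron, Slc7a11-202 and Slc7a11-204, took 19.0% of Slc7a11 in the RSEM-layout table. Slc7a11-202 held 5.90 ± 2.76% there and 20.1 ± 14.8% in the kallisto-layout table. Slc7a11-204 held 13.1 ± 3.69% and 13.7 ± 4.69%. At so low a level, few reads place these transcripts.

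**Figure D4:**
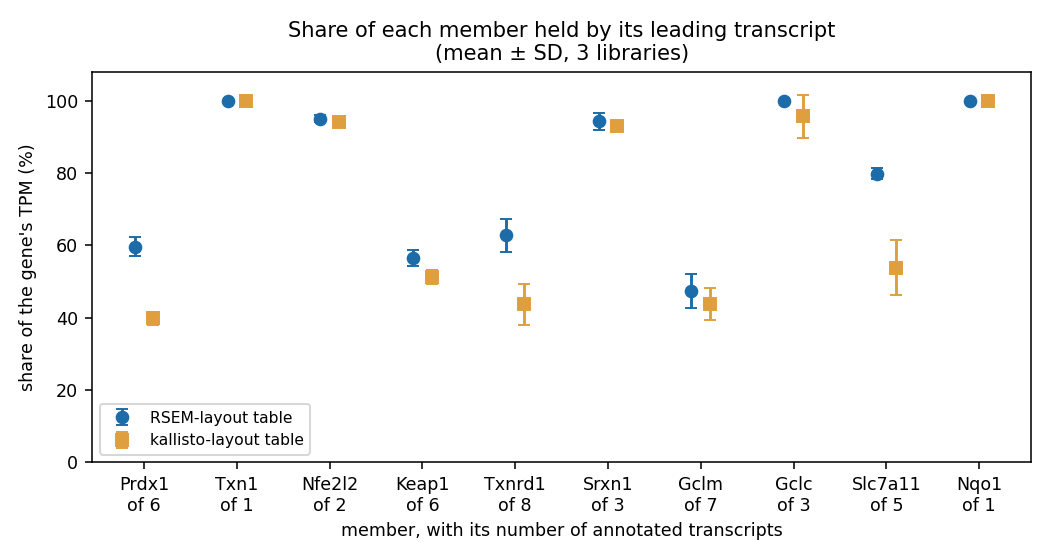
Share of each member's TPM held by its leading transcript (mean ± SD, 3 libraries) in the RSEM-layout table (circles) and the kallisto-layout table (squares), with the number of annotated transcripts under each name. The tables part most for Slc7a11 (79.8% and 53.7%), Prdx1 (59.6% and 39.8%) and Txnrd1 (62.8% and 43.7%).

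Txnrd1 is transcribed from several starts, and its excess in replicate 2 was unequal among them. Transcripts within 200 bases of each RefSeq start were summed, a grouping made after the values were seen. The 4 at the middle start (82859206) took 84.0 ± 4.23% of Txnrd1. They had 79.5, 119 and 67.5 TMM-scaled CPM, 1.62-fold higher in replicate 2 than the mean of the others. The 2 at the downstream start (82860341) had 16.0, 15.2 and 17.3 CPM, 0.915-fold. Txnrd1-205 at the distal start (82833951), with the longest coding length, 1839 against 1497 bases for Txnrd1-201, had 3.15, 1.39 and 1.49 CPM. In this table neither the downstream nor the distal transcripts were highest in replicate 2. In the kallisto-layout table the ratio was 1.69-fold at the middle start, 1.18-fold at the downstream start, so above rather than below the others, and 0.877-fold at the distal start. These transcripts share most of their exons, and no test was made. Any part of the promoter sequences in these ratios was not tested.

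**Figure D5:**
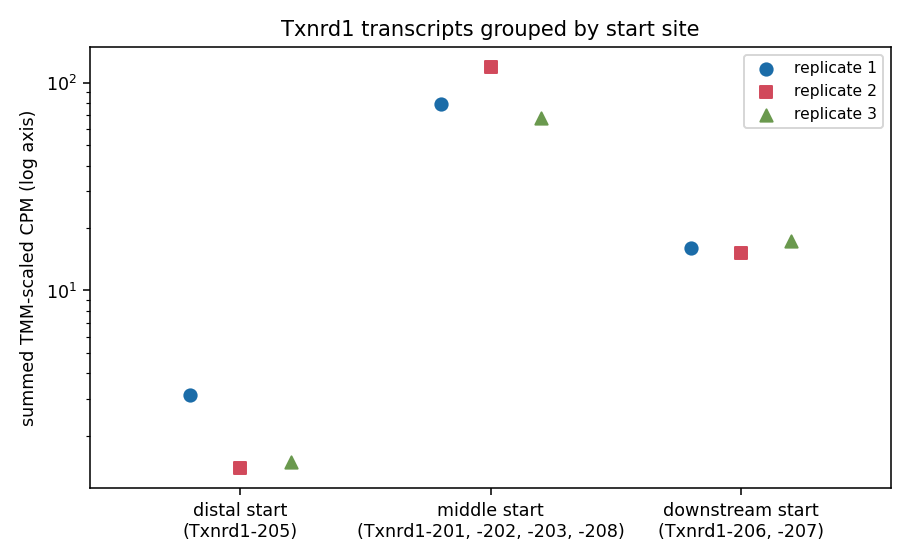
Summed TMM-scaled CPM (log axis) of Txnrd1 transcripts in the RSEM-layout table, grouped by start site, with replicates 1, 2 and 3 as circles, squares and triangles. Replicate 2 is the highest at the middle start, 119 CPM, and not at the distal or downstream start, 1.39 and 15.2 CPM.

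Reads of near-identical copies could be split among genes. Copies of at least 95% identity were found for Prdx1, the processed pseudogenes Gm7204 and Gm21399, which together took at most 0.118% as many reads as Prdx1. For Gclm they were Gm12728 and Gm28669 and for Txn1 Txn-ps1, all at 0 counts. On the opposite strand Gm16754 overlaps an exon of Keap1 and Gm17494 one of Gclm. They had at most 33.9 and 50.5 counts in a library. Whether the counting used strand is not given in the sources used here, so reads of such partners cannot be told apart.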

How the data were processed

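Total RNA-seq tables of 3 replicates of 1 group were used as deposited. Each library has a gene table and a transcript table with an expected count and TPM per row, per the file headers in RSEM's layout. A further deposited transcript table gives an estimated count and TPM in kallisto's layout. Both kinds are named for their layout here. The build mm10 and annotation GENCODE M21 come from text deposited beside each library. Not given in the sources used here are aligner, quantifier, versions and strand use. Rows naming no annotated gene took 0.774%, 0.207% and 0.167% of expected counts and were left out. TPM divides by length and by all other RNAs, so abundant short RNAs lower every value.

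Members and lists were chosen with earlier results of these data known. Expected counts were rounded and scaled with TMM (edgeR 4.0.16, R 4.3.3). The chi-square test used genes averaging at least 10 counts, with Benjamini-Hochberg at 0.05. BCV came from an intercept-only fit after filterByExpr. Python 3.11.15, pandas 2.3.3, numpy 2.4.6, scipy 1.17.1 and DESeq2 1.42.0 (size factors) were also used. The chi-square step was tested on simulated data. Copies were found with blastn 2.17.0, at 95% identity over 80% of the shorter sequence. Promoters were taken from RefSeq (GRCm38.p6). Named beside the members were the 3 highest and the lowest detected gene per list, Slc3a2 and the copies; Maff, Nfe2l3, Me1, Taldo1, Prdx6, Gsta4, Cd14, Itgam, Mertk and Fcgr1 were named after their values were seen. Protein sequences were not used here.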

Additional observations from a re-analysis of the deposited data

How the results depend on the processing

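Detection held for 7 to 10 members over thresholds of 0.1 and 5 TPM and the kallisto-layout table, and for 8 without any 1 replicate. The chi-square test called 10 of 10 members with library totals, DESeq2 size factors, kallisto-layout counts or no count filter. Of all genes it called, in that order, 9101 of 13410, 8802 of 13410, 11294 of 16196 and 8888 of 21981. With a replicate left out it called 6 to 10 members. Of all genes it then called 5550 to 7133, or 42.5% to 51.9% of those tested, in place of 8692, or 64.8%. The Keap1 minus Nfe2l2 difference ranged from -1.63 to -1.22 with a replicate left out and missed the 3-SD rule without replicate 1 or 2; the other 4 planned pairs kept sign and call under every alternative run. The count of members at least 1.5-fold higher in replicate 2 was 4 with TMM, against 1.22% of all genes. It was 6 with DESeq2 size factors, against 1.305%. With library totals it was 7, against 1.63%, and the median of all genes was 0.05 on the log2 scale. With kallisto-layout counts it was 7, against 1.31%, and the 4 were included each time. With nothing added before the ratio, a setting chosen after seeing the data, it was 6, against 3.38%. Over replicate 1 alone it was 5, against 2.18%, and over replicate 3 alone 7, against 2.83%. The count of members at least 1.5-fold lower in replicate 3 was 4 with TMM, against 2.71% of all genes. It was also 4 under each other scaling and with nothing added, where the share of all genes was not taken. Set against replicate 1 alone the count was 2, beside 3.75%, and against replicate 2 alone 7, beside 2.83%. No direction of these ratios turned under another scaling. TPM of the kallisto-layout table were lower for detected genes as a whole, by a median log2 ratio of -1.07, -0.93 and -1.54 in replicates 1, 2 and 3, and for the members by -1.05, -0.94 and -1.58. No paired analysis was possible because there is 1 group. Replicate 1 was shallowest, and depth limits Nqo1, Slc7a11 and the minor transcripts most. With 3 libraries no exact test can go below p = 0.25. Intervals cover counting error only.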
